A study of Mus musculus with 18 samples.

Results

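The 10 genes described here are Notch receptors (Notch1, Notch2, Notch3 and Notch4), Notch ligands (Jag1, Jag2, Dll1 and Dll4) and transcriptional targets (Hes1 and Hey1) in mouse liver metastases. They were chosen by gene symbol from a list proposed with results of both comparisons already in view, and which values weighed in that choice is not recorded. Their levels and fold changes are therefore given as a description, without p-values, and all 10 were found in each of 2 gene tables, which list 22137 and 24778 genes. All 10 also passed the filter on low counts in both tables.

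RNA was sequenced from liver tumours formed by MC38, a mouse colorectal cancer line, after injection into the spleen of mice labelled wild type. The first table holds 5 tumours from mice on a low-fat diet (LFD) and 5 from mice on a high-fat diet (HFD). The second holds 4 tumours labelled shCon, a control hairpin, and 4 labelled shYap, a hairpin against the Hippo pathway co-activator Yap1, all from mice on a high-fat diet. Host age and sex, the hairpin sequences and whether a hairpin line was 1 clone are not given in the sources used here, and no label says that replicates came from separate animals, so the errors measure only the spread between these libraries. Each table was normalised alone, and levels were not compared between tables.

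Notch receptors are single-pass membrane proteins that are activated by ligands on a neighbouring cell. Ligand binding exposes the receptor to ADAM metalloproteases and then to gamma-secretase, which frees an intracellular domain that enters the nucleus and acts with the DNA-binding protein Rbpj on genes of the Hes and Hey families. In the liver the pathway is best known for bile duct formation, through Jag1 and Notch2, and in vessels for the choice of arterial and tip cell fates, through Dll4 with Notch1 and Notch4.

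Libraries held 17766207 to 18474191 estimated counts in the diet table and 17207214 to 21309950 in the hairpin table. Values are CPM (read counts scaled to a common library size) scaled by TMM (trimmed mean of M values), and a gene was called where edgeR's quasi-likelihood test gave a Benjamini-Hochberg adjusted p under 0.05 over all genes of its table. Yap1, the hairpin's target, was 78.1, 82.4, 73.8 and 77.4 CPM in shCon and 71.6, 80.0, 81.4 and 70.5 CPM in the libraries labelled shYap. Those ranges overlapped, with a log2 fold change of -0.04 ± 0.11 (SE), so the Yap1 level does not separate the labels. Xist, an RNA made in female cells, was at 110 ± 23.7 CPM in LFD and 0.169 ± 0.102 CPM in HFD (SD, n = 5 each), so diet and the sex of the RNA cannot be told apart. The hepatocyte markers (10 genes) summed to between 10200 and 90700 CPM in LFD and between 438 and 3980 CPM in HFD, and all 10 fell, so diet and the share of liver RNA cannot be told apart either. In bulk tumour RNA, fewer cells of a type and less RNA per cell cannot be told apart. The epithelial and intestinal markers with a row summed to 53.9 to 542 CPM in the diet table (6 genes) and 118 to 402 CPM in the hairpin table (5 genes). Among them Krt8 reached 274 CPM and Krt18 236 CPM, while Epcam was at most 1.62 CPM in the diet table and 2.42 CPM in the hairpin table, and Krt20 was at 0 in all 5 LFD libraries.

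Per kilobase of annotated exon, the levels of the 10 genes kept much the same tiers in the 4 groups. Hes1, a repressor of the basic helix-loop-helix family, and Notch2 stood highest: in LFD they were at 18.3 ± 1.90 and 12.7 ± 1.91 CPM per kb, and their ranges did not overlap. In HFD they were at 15.1 ± 0.617 and 14.7 ± 0.854 CPM per kb with overlapping ranges, in shCon at 17.1 ± 3.55 and 14.3 ± 1.54, and in the libraries labelled shYap the order of their means was turned, at 11.2 ± 1.16 and 14.6 ± 2.71 (SD). Jag1 and Notch1 formed the next tier in all 4 groups. Their levels per kb were 3.67 ± 0.638 and 3.39 ± 0.418 in LFD, 3.13 ± 0.354 and 2.94 ± 0.124 in HFD, 3.74 ± 0.819 and 4.19 ± 0.144 in shCon, and 3.54 ± 1.01 and 2.52 ± 0.252 in the libraries labelled shYap. The ranges of these neighbours overlapped in every group. Dll1 belonged to that tier in LFD, at 4.29 ± 1.45 CPM per kb, and lay lower at 1.26 ± 0.109 in HFD, 2.0 ± 0.257 in shCon and 1.63 ± 0.520 in the libraries labelled shYap. Notch4 and Dll4 lay between 1.35 and 1.62 CPM per kb by group mean, and Jag2, Notch3 and Hey1 lay between 0.326 and 1.19. Exon lengths are unions over all annotated transcripts (14.23 kb for Notch1), so a level per kb is a lower estimate where long transcripts are not used.

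**Figure D1:**
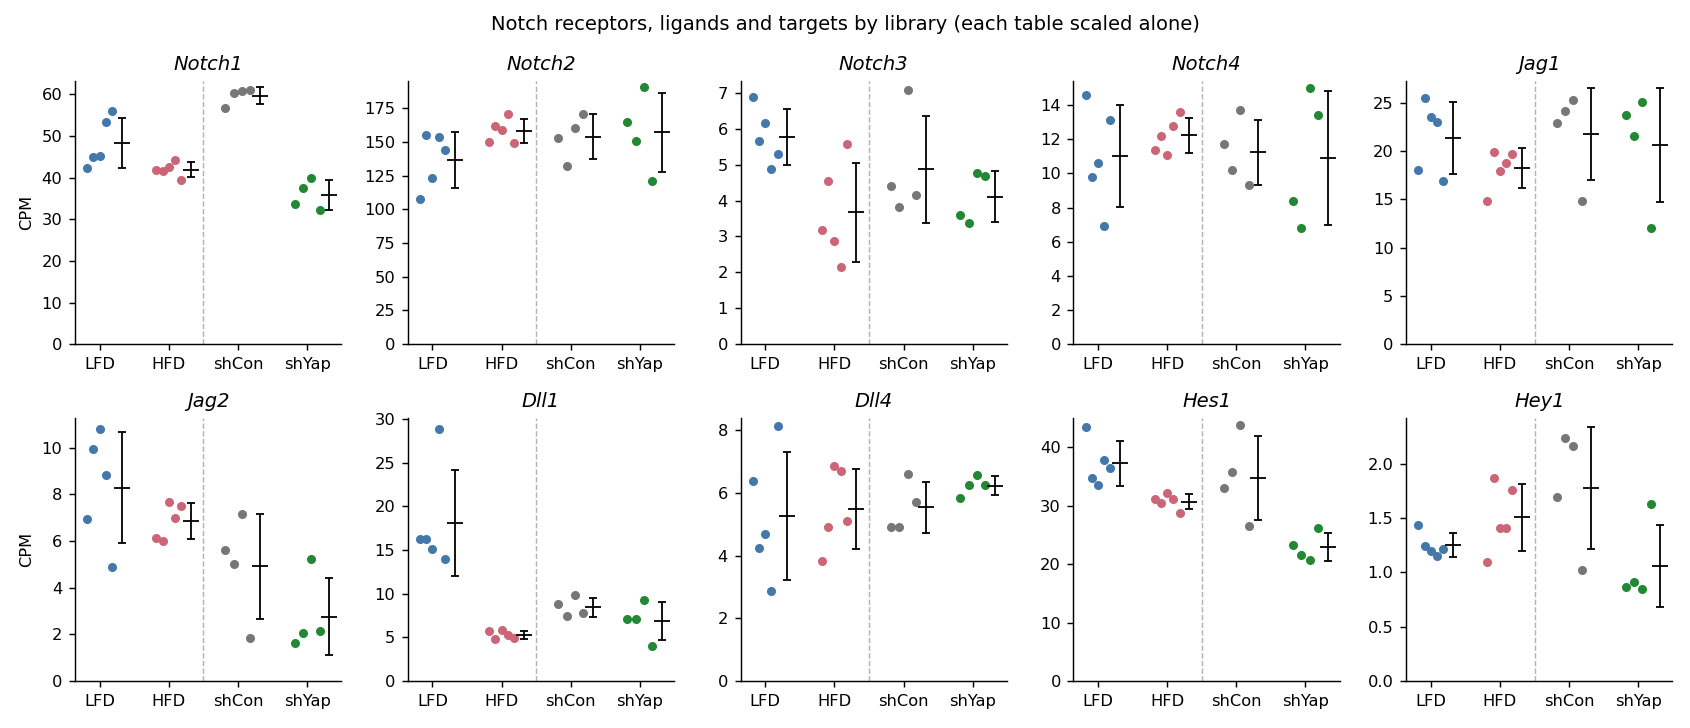
Level of each Notch gene in CPM (y axis, from 0) in every library of the 4 groups on the x axis; points are libraries and bars are the mean ± SD. The dashed line parts the 2 tables, which were scaled alone. The 5 HFD libraries lie below all 5 LFD libraries for Dll1 and Hes1, and the 4 libraries labelled shYap lie below all 4 shCon libraries for Notch1 and Hes1.

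The first comparison asked how metastases differ between the diets. Among the 10 Notch genes, the ligand Dll1 and the target Hes1 were lower in HFD, and the other 8 were not called. Over all genes 41.1% of 16340 were called, 19.4% higher and 21.6% lower, and 30.6% had groups that did not overlap. The median log2 fold change of the 10 genes was -0.22, beside 0.00 over all genes tested.

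Among the receptors, none was called by edgeR, while DESeq2 called Notch3 lower at -0.67. Notch1, on chromosome 2 (26457903 to 26516663, minus strand; mouse build GRCm38 for this and the positions that follow), was 42.3, 44.9, 45.1, 53.3 and 56.0 CPM in LFD and 41.7, 41.5, 42.5, 44.3 and 39.4 CPM in HFD. The HFD libraries were tightly grouped, 3 of them lay below every LFD library, and the log2 fold change was -0.21 ± 0.09. Without LFD replicate 1 the value was -0.25 and Notch1 was called. Notch2 (chromosome 3, 98013527 to 98150361, plus strand), the receptor required for bile duct formation, was 108, 155, 123, 154 and 144 CPM in LFD and 150, 162, 159, 171 and 149 CPM in HFD. The groups overlapped, with 3 of the 5 HFD libraries above all of LFD and a log2 fold change of 0.21 ± 0.11. Notch3 (chromosome 17, 32120820 to 32166852, minus strand), the receptor of vascular smooth muscle and pericytes, was 6.87, 5.65, 6.16, 4.87 and 5.29 CPM in LFD and 3.19, 4.55, 2.87, 2.16 and 5.57 CPM in HFD. Of the HFD libraries 4 lay below every LFD library and replicate 5 lay among them, with a log2 fold change of -0.65 ± 0.25. Without HFD replicate 5 the value was -0.85 and Notch3 was called. The markers of pericytes and smooth muscle (10 genes) summed to 224 to 304 CPM in LFD and 263 to 339 CPM in HFD. Of these genes 4 were called higher and none was called lower. By sign alone 6 log2 fold changes were positive and 4 negative, the lowest at -0.95. The part of these cells in the Notch3 value was not tested. Notch4 (chromosome 17, 34564268 to 34588503, plus strand), a receptor mostly of endothelium, ranged from 6.91 to 14.6 CPM in LFD and from 11.1 to 13.6 CPM in HFD, with HFD wholly inside the LFD range and a log2 fold change of 0.16 ± 0.18.

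Of the 4 ligands, Dll1 was called. Its gene lies at chromosome 17, 15367354 to 15376872, on the minus strand, and its product activates receptors on adjacent cells, in textbook accounts in somites and in the marginal zone B cell niche. Dll1 was 16.3, 16.2, 15.1, 28.9 and 14.0 CPM in LFD and 5.73, 4.80, 5.79, 5.28 and 4.89 CPM in HFD. Every HFD library lay below every LFD library, and LFD replicate 4 stood well above the rest of its group. The log2 fold change was -1.77 ± 0.20, or 3.42-fold lower, and was -1.54 without LFD replicate 4. The B cell markers (5 genes) summed to 64.3 to 186 CPM in LFD and 16.5 to 36.5 CPM in HFD, and all 4 that were tested fell. The T cell markers (6 genes) summed to 18.6 to 80.1 CPM in LFD and 7.78 to 30.7 CPM in HFD, and all 6 fell. Kupffer cell markers (5 genes) summed to 46.0 to 210 CPM in LFD and 8.80 to 57.5 CPM in HFD. All 5 had a negative log2 fold change, and 3 were called lower. Fibroblast markers (6 genes) went the other way, from 2810 to 5370 CPM in LFD to between 6200 and 8300 CPM in HFD, with 3 called higher. Cholangiocyte markers (7 genes) were at 114 to 146 CPM in LFD and 154 to 189 CPM in HFD, with 2 called higher and 1 called lower. The part of these cells in the Dll1 and Hes1 values was not tested.

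The other ligands were not called. Jag1 (chromosome 2, 137081456 to 137116644, minus strand), the ligand mutated in Alagille syndrome of the bile ducts, was 18, 25.5, 23.5, 23.0 and 16.9 CPM in LFD and 14.8, 19.9, 17.9, 18.8 and 19.7 CPM in HFD, a log2 fold change of -0.23 ± 0.13. Jag2 (chromosome 12, 112907819 to 112929776, minus strand) was between 4.88 and 10.8 CPM in LFD and between 6.01 and 7.66 CPM in HFD, a log2 fold change of -0.28 ± 0.20. Dll4 (chromosome 2, 119325784 to 119335962, plus strand), the ligand of arterial endothelium and tip cells, was 6.39, 4.25, 4.69, 2.88 and 8.14 CPM in LFD and 3.84, 4.90, 6.85, 6.69 and 5.09 CPM in HFD. For these 3 ligands the groups overlapped, and for Dll4 the log2 fold change was 0.06 ± 0.28. Its approximate 95% interval, from the SE and a normal distribution, was -0.48 to 0.60. The endothelial markers (12 genes) summed to 113 to 255 CPM in LFD and 145 to 189 CPM in HFD, and 1 of the 12 was called lower. By sign alone 8 log2 fold changes were negative and 4 positive.

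Of the targets, Hes1 (chromosome 16, 30064384 to 30067796, plus strand) was 43.5, 34.8, 33.6, 37.9 and 36.5 CPM in LFD and 31.1, 30.4, 32.1, 31.1 and 28.7 CPM in HFD. The groups did not overlap, though the highest HFD library and the lowest LFD library were close. Hes1 was called lower with a log2 fold change of -0.28 ± 0.08, or 1.21-fold. The Hes1 value depended on the scaling: with total counts in place of TMM it was -0.02 and not called, as the median of all genes moved to 0.24. Under that scaling Dll1 was -1.56 and still called, Notch4 was called higher at 0.45, Notch1 was 0.05, and the table's calls split into 4076 higher and 2216 lower, against 3178 and 3532 with TMM. Hes1 also missed the threshold with upper-quartile factors (-0.20) and without HFD replicate 5 (-0.25). Hey1 (chromosome 3, 8663359 to 8667256, minus strand), a repressor that acts downstream of Notch in vessels, was 1.44, 1.24, 1.20, 1.15 and 1.22 CPM in LFD and 1.10, 1.87, 1.41, 1.41 and 1.76 CPM in HFD. It overlapped between the groups, with a log2 fold change of 0.27 ± 0.18. It was the scarcest of the 10, with 15 to 47 counts per library over both tables and so a counting error of 14.6% to 25.8%. That error is taken from the counts alone and leaves out any error from amplification.

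**Figure D2:**
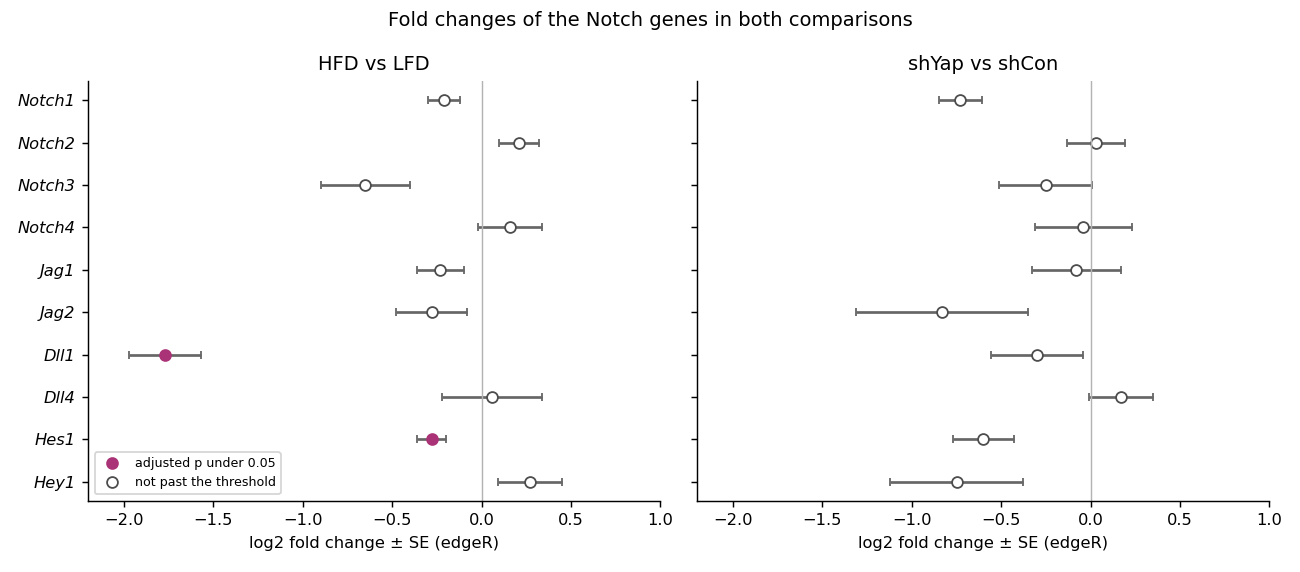
Log2 fold change of each Notch gene (x axis; points, with bars for ± SE) for HFD against LFD on the left and for the libraries labelled shYap against shCon on the right. Filled points passed an adjusted p of 0.05: Dll1 at -1.77 and Hes1 at -0.28 on the left, none on the right, where Notch1, Jag2, Hes1 and Hey1 lie furthest below 0.

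The second comparison set tumours with the Yap hairpin against those with the control hairpin. No gene of the table was called by edgeR (0 of 16571, or 0%), while 1804 had an unadjusted p under 0.05 and DESeq2 called 410. Receptor Notch1 and target Hes1 were lower in all 4 libraries labelled shYap than in any shCon library, and 8 of the 10 genes had a negative log2 fold change. Groups did not overlap for 2 of the 10 genes, beside 6.57% of all genes. The median log2 fold change of the 10 was -0.27, beside 0.03 over all genes.

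Notch1 was 56.6, 60.4, 60.7 and 60.9 CPM in shCon and 33.6, 37.6, 40.0 and 32.2 CPM in the libraries labelled shYap. The gap between the groups was wider than either group's range, and the log2 fold change was -0.73 ± 0.12, or 1.66-fold lower. It was the one Notch gene that DESeq2 called. The other receptors overlapped between the groups: Notch2 was 153, 132, 160 and 171 CPM in shCon and 165, 151, 191 and 121 CPM in the libraries labelled shYap, a log2 fold change of 0.03 ± 0.16. Notch3 was 4.41, 3.82, 7.08 and 4.16 CPM against 3.60, 3.38, 4.76 and 4.68 CPM, a log2 fold change of -0.25 ± 0.26. Notch4 was 11.7, 10.2, 13.7 and 9.30 CPM against 8.41, 6.82, 15.0 and 13.4 CPM, a log2 fold change of -0.04 ± 0.27, with the libraries labelled shYap on either side of the shCon range. Approximate 95% intervals of these 3 ran from -0.28 to 0.34, from -0.76 to 0.26 and from -0.57 to 0.48. They were taken from the SE and a normal distribution, which makes them narrow for 4 libraries per group. Changes inside those ranges are not excluded.

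Hes1 was 33.0, 35.8, 43.9 and 26.5 CPM in shCon and 23.3, 21.6, 20.7 and 26.1 CPM in the libraries labelled shYap. The groups did not overlap, although shCon replicate 4 and replicate 4 of the other group nearly met. The log2 fold change was -0.60 ± 0.17, or 1.52-fold lower. Hey1 was 1.70, 2.24, 2.17 and 1.02 CPM in shCon and 0.862, 0.909, 0.851 and 1.63 CPM in the libraries labelled shYap. Replicate 4 of each group lay apart for Hey1, low in shCon and high in the other group, and the log2 fold change was -0.75 ± 0.37.

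Ligands were not called and their groups overlapped. Jag2 was 5.61, 5.01, 7.17 and 1.84 CPM in shCon and 1.62, 2.07, 5.22 and 2.12 CPM in the libraries labelled shYap, a log2 fold change of -0.83 ± 0.48. A single library in each group, shCon replicate 4 and shYap replicate 3, lay at the level of the opposite group. Dll1, at 8.81, 7.39, 9.81 and 7.80 CPM against 7.10, 7.12, 9.30 and 3.97 CPM, had 3 of 4 libraries below all of shCon and a log2 fold change of -0.30 ± 0.26. Jag1 ranged from 14.8 to 25.3 CPM and from 12 to 25.1 CPM, a log2 fold change of -0.08 ± 0.25. Dll4 was 4.91, 4.91, 6.62 and 5.71 CPM against 5.83, 6.26, 6.58 and 6.26 CPM, a log2 fold change of 0.17 ± 0.18.

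A pair of libraries lay apart over all genes. The biological coefficient of variation between shCon replicate 4 and the rest of shCon was 25.0% to 34.1% (11% to 16.6% among the others), and for shYap replicate 3 it was 40.1% to 42.4% (18.6% to 30.1% among the others). With both left out, a choice made after seeing the data that narrows the spread by its construction, 1255 of 16653 genes were called (7.54%). Notch1 at -0.78, Jag2 at -1.61 and Hes1 at -0.67 were then called lower. For Jag2 the libraries left out are those at the level of the opposite group, so leaving them out also moves its group means apart. Another exclusion tried after seeing the data, replicate 4 of both groups, left 68 of 16668 genes called (0.408%) and none of the 10 Notch genes, with Notch1 at -0.68 and Hes1 at -0.78. With any single library left out none of the 10 was called, and Notch1 ranged from -0.77 to -0.68 and Hes1 from -0.71 to -0.46. The calls of Notch genes in this comparison thus depend on the tool and on which libraries enter.

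The T cell and cholangiocyte sums also separated the groups, the first lower and the second higher in the libraries labelled shYap. The T cell sum was 23.1 to 62.5 CPM in shCon and 7.35 to 16.5 CPM in the libraries labelled shYap, the ranges did not overlap, and all 6 genes were lower with none called. The cholangiocyte markers (7 genes) summed to 145 to 163 CPM in shCon and 166 to 200 CPM in the libraries labelled shYap, also without overlap and with none called. The part of these cells in the Notch1 and Hes1 values was not tested. Endothelial markers summed to 201 to 270 CPM against 194 to 272 CPM, pericyte and smooth muscle markers to 270 to 341 CPM against 220 to 338 CPM, and hepatocyte markers to 10300 to 34700 CPM against 12700 to 63700 CPM, all with overlapping ranges. The ranges of fibroblast, B cell, macrophage and Kupffer cell markers overlapped as well.

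**Figure D3:**
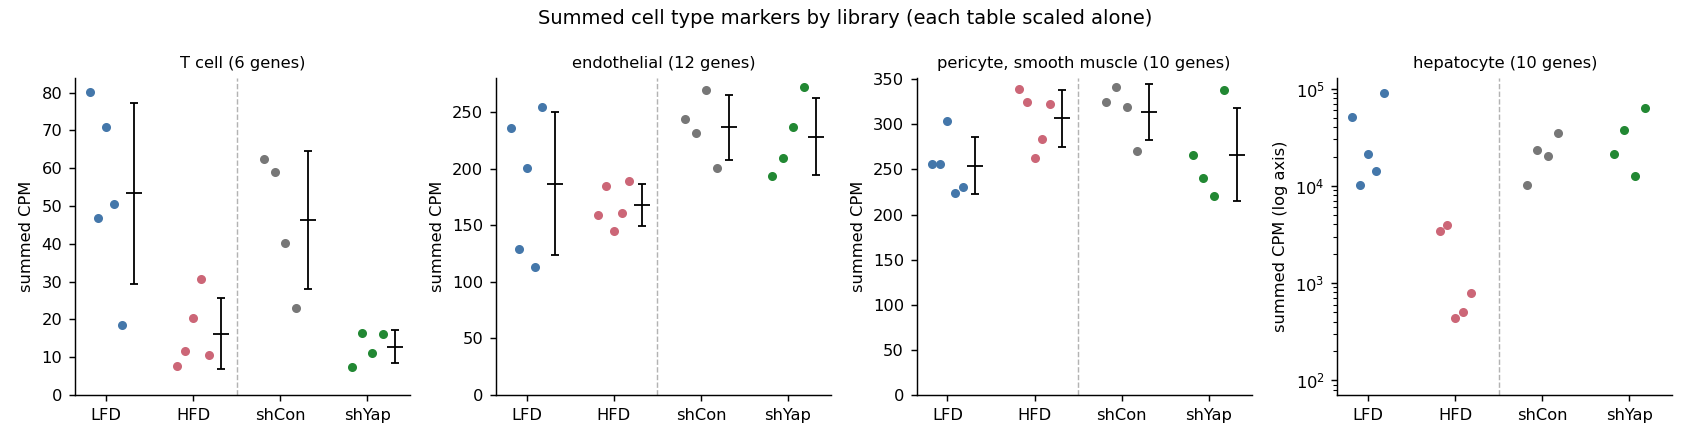
Summed CPM of cell type markers (y axis; logarithmic for hepatocytes, from 0 for the others) in every library of the 4 groups on the x axis; points are libraries and bars are the mean ± SD, left out on the logarithmic axis. T cell sums lie at 23.1 to 62.5 CPM in shCon and 7.35 to 16.5 CPM in the libraries labelled shYap, and hepatocyte sums at 10200 to 90700 CPM in LFD and 438 to 3980 CPM in HFD.

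The rest of the pathway was read from 46 other genes, of which 40 were tested in each table. In this and the next paragraph, a gene that rose or fell is one that was called. In HFD 13 of the 40 rose and 6 fell, with a median log2 fold change of 0.08. Those 19 of 40 stand beside 41.1% of all genes called, so neither this share nor the counts by role that follow set the pathway apart. The 19 became 12 with a replicate block and 6 with the closest HFD pairs summed. Adjusted p-values in this and the next paragraph are from edgeR's quasi-likelihood test. Of 9 genes of the nuclear complex 4 rose and none fell. Rbpj itself, the DNA-binding partner of the Notch intracellular domain, went from 190 ± 59.9 to 321 ± 24.8 CPM (SD over 5 libraries each; log2 fold change 0.76 ± 0.20, adjusted p = 0.0125). The coactivator Maml3 (0.72 ± 0.21, adjusted p = 0.0213), the corepressor Spen (0.43 ± 0.11, adjusted p = 0.00926) and Snw1, a cofactor that binds Rbpj (0.23 ± 0.08, adjusted p = 0.0432), rose as well. Of 6 genes of receptor glycosylation, Pofut1, which adds O-fucose to the receptor, rose by 0.69 ± 0.07 (adjusted p = 0.000164), and Poglut1, which adds O-glucose, by 0.36 ± 0.11 (adjusted p = 0.0196). Of 10 protease genes 2 rose and 3 fell. Adam17, a metalloprotease able to shed Notch, rose by 0.48 ± 0.09 (adjusted p = 0.0021), and the gamma-secretase subunit gene Aph1b by 0.44 ± 0.12 (adjusted p = 0.0132). Psen2, a catalytic subunit of gamma-secretase, fell by 2.08 ± 0.38 (adjusted p = 0.00258) and Aph1c by 1.04 ± 0.22 (adjusted p = 0.0048). Aph1b and Aph1c are close paralogs, and reads shared between them could have been split either way. The remaining protease gene that fell was Furin, which cleaves the receptor precursor, at -0.62 ± 0.20. The call of Snw1 was lost without LFD replicate 1 or any of HFD replicates 2 to 5, and that of Furin without LFD replicate 1 or any of HFD replicates 3 to 5; both were also lost with total counts.

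Of 11 genes of trafficking and turnover 3 rose and 2 fell. Dtx4 (0.75 ± 0.15, adjusted p = 0.0035) and Dtx2 (0.47 ± 0.14, adjusted p = 0.0256), of the Deltex ubiquitin ligase family, rose with Numbl (0.61 ± 0.15, adjusted p = 0.0105), a relative of the Notch antagonist Numb. The ubiquitin ligase genes Itch (-0.25 ± 0.07, adjusted p = 0.0215) and Mib1 (-0.24 ± 0.08), the latter acting on ligands, fell with TMM, but with total counts they were at 0.02 and 0.02. Of 4 further targets tested, Nrarp, a feedback inhibitor induced by Notch, went from 21.9 ± 4.6 to 32.2 ± 2.66 CPM (0.56 ± 0.14, adjusted p = 0.00959). Hes7, an oscillating repressor of somite formation, rose by 1.19 ± 0.36 (adjusted p = 0.0238), and Dtx1 fell by 2.37 ± 0.63 (adjusted p = 0.0137). Both were scarce, so these fold changes rest on few counts. Hes7 went from 0.541 ± 0.326 to 1.27 ± 0.223 CPM and Dtx1 from 1.58 ± 1.14 to 0.298 ± 0.24 CPM (SD). Leaving out 1 library ended the calls of Dtx2 (LFD replicate 1; HFD replicates 1, 3 and 5), Itch (HFD replicates 1 and 3), Hes7 (LFD replicate 3; HFD replicate 3) and Mib1 (LFD replicates 1, 4 and 5; HFD replicates 1, 2, 3 and 5). None of the 4 further ligand genes listed was tested.

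In the libraries labelled shYap none of the 40 was called, and 6 had an unadjusted p under 0.05. Rbpj was 217 ± 17.7 CPM in shCon and 368 ± 98.6 CPM in those libraries (SD, n = 4 each). Its log2 fold change was 0.76 ± 0.19 (adjusted p = 0.192). The ubiquitin ligase Neurl1a (0.51 ± 0.17, adjusted p = 0.323) and the Fringe glycosyltransferase Lfng (-0.51 ± 0.20, adjusted p = 0.391) were among the genes of smallest p. Nrarp, singled out after its values were seen because it is a Notch target like Hes1, was 36.9 ± 9.04 and 23.9 ± 6.66 CPM (-0.62 ± 0.26, adjusted p = 0.421). DESeq2 called Rbpj.

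The genes whose levels were most like each member, by Pearson r of log2 CPM centred on the group means over the 18 libraries, were Rabgef1 (r = 0.86) and Simc1 (0.85) for Notch1, Ahnak (0.95) and Prrc2c (0.94) for Notch2, Phkg2 (0.86) for Notch4, Pdcl3 (0.94) and Dock11 (0.91) for Jag1, Tubgcp5 (0.91) and Appl1 (0.87) for Dll1, Zbtb20 (0.87) and Tmem59 (0.86) for Dll4, and Tomm7 (0.83) and Thnsl1 (0.80) for Hes1. None of these genes is on the pathway lists, and libraries share depth and tissue makeup, so r is a description. Among the members, the highest values were those of Notch2 with Notch1 and Dll1 (r = 0.63 each), Jag1 with Dll1 (0.58) and Notch4 with Dll4 (0.56). Notch3, Jag2 and Hey1 lay under the 5 CPM minimum for this measure.

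Promoter sequence was read from RefSeq (GRCm38.p6), as the 250 bases before a transcript start, for 8 of the 10 genes (9 promoters). Notch1 and Dll1 are shown because, among members whose groups did not overlap, they had the largest fold changes of the hairpin and diet comparisons. Each is given 5′ to 3′ along its own, minus strand, and capitals mark the TEAD core motif, searched as GGAATG and its reverse complement CATTCC.
Notch1, chr2:26503823-26504072: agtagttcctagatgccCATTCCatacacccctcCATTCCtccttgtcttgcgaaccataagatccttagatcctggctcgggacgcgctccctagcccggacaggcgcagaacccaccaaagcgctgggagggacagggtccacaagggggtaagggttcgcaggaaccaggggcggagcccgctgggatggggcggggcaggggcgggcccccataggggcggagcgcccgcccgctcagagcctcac
Dll1, chr17:15376933-15377182: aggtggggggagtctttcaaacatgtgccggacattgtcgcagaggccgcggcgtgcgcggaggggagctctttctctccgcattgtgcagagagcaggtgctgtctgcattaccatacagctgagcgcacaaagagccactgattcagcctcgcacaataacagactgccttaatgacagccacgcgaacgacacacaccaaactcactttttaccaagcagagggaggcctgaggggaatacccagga
TEAD factors are the DNA-binding partners of Yap1, and this motif was searched after the Notch1 sequence had been seen. The Notch1 window held 2 matches, starting 233 and 216 bases before the transcript start, and the Dll1 window shown held none. A further Dll1 promoter among the 9, at chr17:15375824-15376073, is not shown and also held none. The Notch1 window lies inside the Notch1 gene span given above, not before it. Over the 9 promoters 2 held a match (Notch1 and Notch4), beside 12.6% of 32851 promoters of the same length, and 0.992% of all held at least 2. The Rbpj core motif TGGGAA, on either strand, was in 0 of the 9, beside 21.6% of all promoters. Those 9 belong to receptors and ligands only. The targets Hes1 and Hey1 had no promoter in the set read, so neither was searched. These matches describe letters in the windows shown.

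Annotated genes overlap several of the 10, and the sources used here do not say whether counting used strand. The antisense gene 0610009E02Rik at Notch1 was at mean levels of 2.22 to 3.56 CPM in the 4 groups, far below Notch1, and Gm42820 within Notch2 was at most 1.09 CPM by group mean. Genes antisense to Notch3 and Dll4 were at or below 0.204 CPM by group mean. For A930024N18Rik, antisense to Dll1, no level was found under that symbol in either comparison, so its reads and those of Dll1 cannot be told apart.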

How the data were processed

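RNA from 18 metastases was sequenced. The authors deposited 2 tables of estimated counts, in which 59.7% and 61.8% of values were whole. Reads were processed with STAR 2.7.3a and Partek, with builds GRCm38 and mm10 named, per the submitters' processing notes; the annotation and strand setting are not given in the sources used here. Samples were grouped by their titles.

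Estimated counts were rounded and tested with edgeR 4.0.16 (R 4.3.3; TMM factors, filterByExpr, robust quasi-likelihood fit, Benjamini-Hochberg over all genes, threshold 0.05), without covariates, on 16340 and 16571 genes. SE is the absolute log2 fold change over the square root of F. Procedures were tested on simulated data. DESeq2 1.42.0, other scalings and filters, a replicate block and leaving out libraries were tried.

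The members, gene lists and tests were chosen with earlier results of these data known. Of the other pathway genes, those called were named, up to 4 per role by p, and where none was called the 4 of smallest p. Furin and Mib1 were named beyond that rule, after their values were seen, to complete the counts of genes that fell. For each member with a mean of at least 5 CPM in both tables, the 2 most alike genes were named. Some genes that these rules select are not reported here. Gene positions and exon lengths are from GENCODE M21.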

Additional observations from a re-analysis of the deposited data

Results flagged for a closer look

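Of 40 sets of values (10 genes in 4 groups), 4 held a library standing apart from the rest of its group by Dixon's criterion, which flags about 1 set in 20 by chance. Dll1 was 28.9 CPM in LFD replicate 4 and 14.0 to 16.3 CPM in the other LFD libraries. Notch1 was 56.6 CPM in shCon replicate 1, the lowest, and 60.4 to 60.9 CPM in the others. Jag2 was 5.22 CPM in shYap replicate 3 and 1.62 to 2.12 CPM in the others labelled shYap, and Hey1 was 1.63 CPM in shYap replicate 4 and 0.851 to 0.909 CPM in the others.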

How the results depend on the processing

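Dll1 stayed lower in HFD and called under every alternative run, between -1.83 and -1.54 on the log2 scale. For HFD against LFD, 6710 genes, 2 Notch genes and 19 other pathway genes were called. The Notch count was 1 with upper-quartile factors, 1 with the replicate block and 1 with the closest HFD pairs summed, since Hes1 was lost each time, and 3 with DESeq2, which added Notch3. Those pairs (HFD replicates 1 and 2, and 3 and 4) lay close together, with biological coefficients of variation at 7.3% and 6.4%, while other HFD pairs had 12.7% to 24.5%; summing them left 4233 genes and 6 other pathway genes called. The replicate block left 4929 genes and 12 other pathway genes. Leaving out 1 library gave 5523 to 7253 genes, 2 to 3 Notch genes and 13 to 22 other pathway genes. With total counts, Mib1 was 0.021 and Itch 0.015. For shYap against shCon, where no gene was called, DESeq2 called 410 genes, 1 Notch gene and 2 other pathway genes. Leaving out 1 library gave 0 to 94 genes (94 without shCon replicate 4, 1 without shYap replicate 4), and the replicate block 0, also with the numbers in the deposited column names. That block and the total-count scaling were likewise chosen after seeing the data. The exclusions of 2 libraries, both tried after seeing the data, gave 1255 genes, 3 Notch genes and 3 other pathway genes (Psen2 and Nrarp among them) without shCon replicate 4 and shYap replicate 3, and 68 genes, 0 Notch genes and 0 other pathway genes without replicate 4 of both groups. Same-numbered libraries did not deviate together (correlations -0.5 to 0.315 in the diet table and -0.052 to 0.182 in the hairpin table), so the numbers were not taken as pairs. The cause of the other differences was not tested. Counting error limits Hey1, Jag2 and Notch3 most.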
